A study of Canis lupus familiaris with 2 samples.

Results

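Chromosome 6 genes that differed between a doxorubicin-resistant canine lymphoma line and its parental line were nearly all higher in the resistant line, from one end of the listed stretch to the other. Its listed genes were taken by position alone: every chromosome 6 row of the authors' comparison table, leaving out genes whose symbol starts with ZNF, which gave 216 of 1729 rows. The 11 ZNF rows left out were all higher in the resistant line (100%), 3 of them (27.3%) by at least 1 on the log2 scale. The chromosome was proposed because its genes were mostly raised, so the directions given for its genes are descriptions of these libraries.

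RNA sequencing of poly-A RNA compared CLBL-1 8.0, canine lymphoma cells that resist doxorubicin and are kept in medium with 8 µM of the drug, with CLBL-1, the parental line of diffuse large B-cell lymphoma without chemoresistance. Both lines were grown in RPMI medium with 10% fetal bovine serum and antibiotics, and both carry the tissue label lymph node. RNA came from 3 dishes per the labels, but each line is 1 sample with 1 value per gene, so no difference below has a replicate check, and no test was made. The labels do not say whether doxorubicin was withdrawn before RNA was taken, so drug exposure and acquired resistance cannot be told apart. Of 8 B cell markers looked up, CD37 had a row, at 26.6 in resistant cells against 50.4 in parental cells. The others had no row, so the labelled cell type could not be checked further against levels in this table. None of 4 T cell, 4 myeloid and 4 stromal markers had a row.

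Doxorubicin inserts into DNA and traps topoisomerase II, and cells that survive it for long can differ from their parents in drug transport, DNA damage signalling, cell death and genome content. Genes that sit side by side on a chromosome share its copy number and often its chromatin, but seldom one function. The chromosome 6 genes of the table encode, among others, mitochondrial enzymes, subunits of the transcription and splicing machinery, vesicle coats, lysosomal channels, chromatin regulators and immune receptors. DNA copy number was not measured here.

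In the resistant line 203 of the 216 genes (94.0%) were higher and 13 (6.02%) were lower, against a background of 65.2% higher and 34.8% lower over all 1729 rows. On the other chromosomes 60.8% of rows were higher and 39.2% lower. A difference of at least 1 on the log2(value + 1) scale upward was present in 72 genes, 33.3% of the 216, against 24.1% of all rows and 22.7% of those on the other chromosomes. A downward difference of that size was present in 10 genes (4.63%), against 14.4% of all rows and 15.9% of those on the other chromosomes. The values are abundances of unstated unit, and log2 differences are log2((resistant + 1)/(parental + 1)) unless a fold is named, so the differences of low genes come out smaller than their folds. The RNA is from bulk cultures, so more RNA per cell and more cells with the RNA cannot be told apart. The median log2 difference of the 216 genes was 0.88, against 0.73 over all rows and 0.70 over rows of the other chromosomes.

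The same genes made up 22.2% of the abundance summed over all rows in resistant cells and 11.3% in parental cells. Their summed abundance was 26783 in resistant cells against 12516 in parental cells, a ratio of 2.14, and the ratio was 1.82 without NOXO1, a row discussed with the largest increases. The median gene was at 41.7 in resistant cells against 22.2 in parental cells.

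The upper quartile of all listed values was 1.25 times as high in the resistant line (0.32 in log2 units). Because no listed gene has a log2 fold under 0.67 in either direction, scaling this away could turn no sign, and it says nothing of stability. Centring on the median of all rows, which moves every difference by 0.73, left 163 of the 216 genes above that median and 40 of the higher genes at or below it. After that centring the median of the 216 genes was 0.15. Because the rows were chosen by the authors for being different, neither shift measures the whole transcriptome.

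The higher genes ran along the whole listed length of the chromosome. The first listed gene was LOC111096170, whose interval starts at position 439505 (all positions are the deposited ones, on the build CanFam3.1 that the submitters' processing notes name), at 18.8 in resistant cells against 5.22 in parental cells. The last was LOC102155681, whose interval ends at 74868932, at 6.38 against 1.75. All 8 windows of 10 Mb had a positive median, from 0.81 between 20 and 30 Mb to 1.57 between 70 and 80 Mb, where it rests on 2 genes. The windows with the most genes were the one from 30 to 40 Mb, with 57 genes, 53 of them higher, and the one from 10 to 20 Mb, with 50 genes, 45 of them higher. Across the 203 higher genes the size of the fold had no visible trend with position (Spearman coefficient -0.014) or with the genomic length of the gene (-0.029). These coefficients are over genes of 1 pair of libraries and only describe them.

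**Figure D1:**
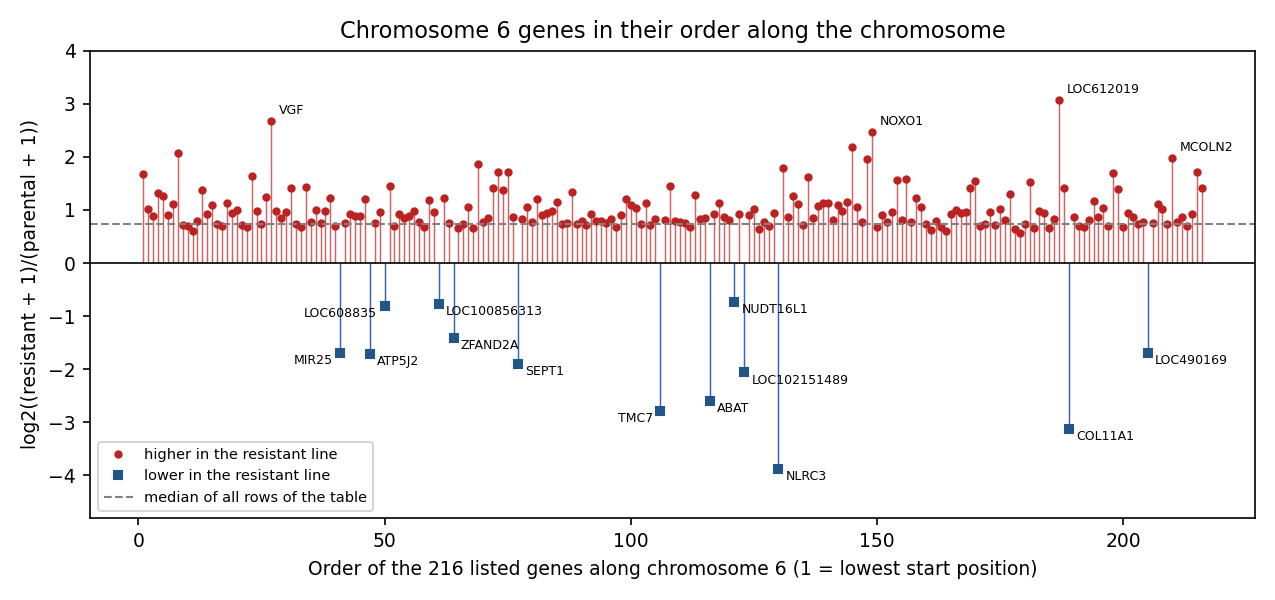
Each of the 216 listed chromosome 6 genes is drawn in its order along the chromosome (x axis) with its log2((resistant + 1)/(parental + 1)) difference (y axis), red circles for the 203 higher and blue squares for the 13 lower in the resistant line. The 13 lower genes stand singly among higher neighbours, and the dashed line is the median of all rows, 0.73.

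Higher genes followed one another in long runs, which follows from 203 of the 216 listed genes being higher. These are runs of listed genes only, and genes without a row lie between them. The longest held 58 consecutive listed genes, from CLUAP1 at 37708258 to LOC102152658 ending at 47062526. No lower gene stood next to another lower gene. Strand made little difference to the median, which was 0.87 over 105 genes on the plus strand and 0.89 over 111 genes on the minus strand. Of the 13 lower genes, 10 lay on the plus strand.

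The listed genes were not evenly spaced. The widest interval without a listed gene was 5.15 Mb between PRKACB, a catalytic subunit of protein kinase A, and DNAJB4, an Hsp40 chaperone. The next were 3.67 Mb between LOC111096175 and CASTOR2, and 2.88 Mb between ABAT and EEF2KMT. CASTOR2 is annotated as subunit 2 of the cytosolic arginine sensor of the growth kinase complex mTORC1.

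Relative to its number of genes, chromosome 6 had more rows higher in the resistant line than any other chromosome. Gene counts and gene order came from a RefSeq gene table of the dog assembly UU_Cfam_GSD_1.0, with ZNF genes left out on both sides. This table has 903 protein-coding genes on chromosome 6, of which 198 had a row: 187 higher (20.7%) and the remaining 11 lower (1.22%). On the other chromosomes together, 3.99% of 19484 reference genes had a row higher in the resistant line, and 2.57% a row lower. Counting both directions, 21.9% of chromosome 6 genes were listed, against 24.7% on chromosome 36, where 24.1% were lower in the resistant line. The share with a higher row ranged from 0.602% to 8.997% over single chromosomes other than 6, with a median of 3.97%. Chromosome 14 had the 8.997%, and chromosome 12 followed with 6.78% and chromosome 7 with 6.29%. Most reference genes of chromosome 6 had no row, and their levels were not analysed here.

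**Figure D2:**
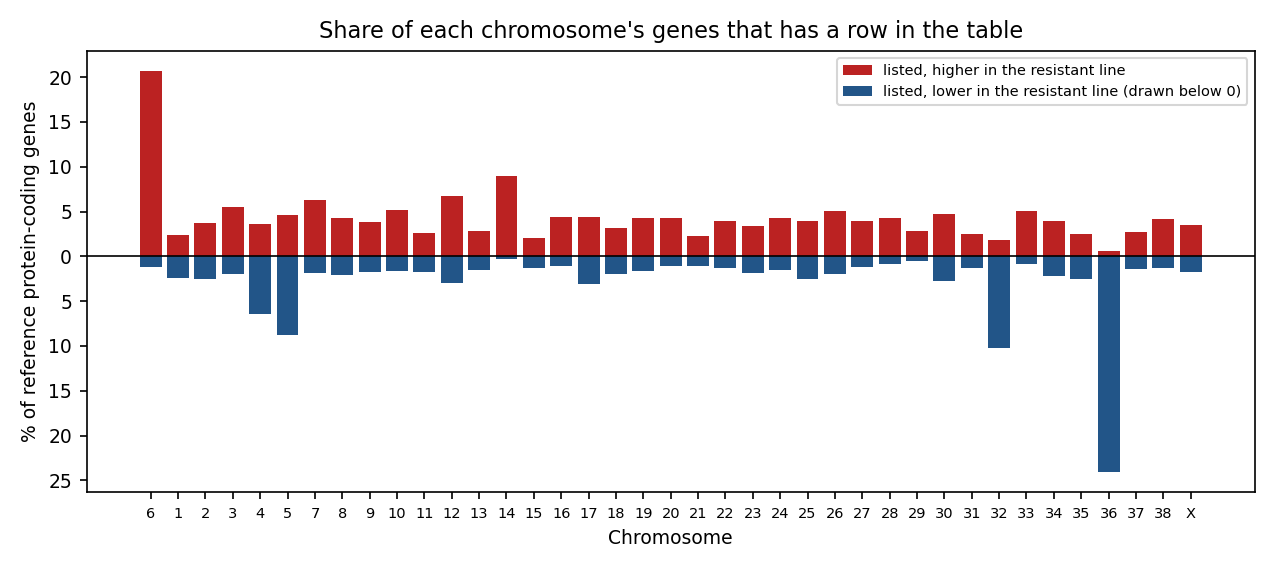
Bars give, for each chromosome, the percentage of reference protein-coding genes with a row in the table, higher in the resistant line (red, above 0) or lower (blue, drawn below 0), ZNF genes left out. Chromosome 6 stands first with 20.7% higher and 1.22% lower, and no other chromosome passes 8.997% higher.

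Along chromosome 6 the higher rows were spread out as well. When its reference genes were cut in their order into 10 blocks of 90 or 91 genes, named here by their first and last listed gene, the share with a higher row lay between 13.3% and 28.9% in every block. The block from ORAI3 to ZKSCAN2 had the 28.9%, the block from PKMYT1 to LMF1 26.7% and the block from SUMF2 to PLOD3 26.4%. The lowest shares, 13.3% each, were in the block from EARS2 to PARN and in the last block, from LRRC8C to TNNI3K. Each of the 10 blocks was therefore above the 8.997% of chromosome 14 as a whole. The other chromosomes were not cut into blocks, so the shares of single blocks on them are not known. Adjacent genes were seldom all listed: the longest runs of reference neighbours with higher rows were 4 genes, FLYWCH1, FLYWCH2, SRRM2 and ELOB in one place and STUB1, RHBDL1, RHOT2 and WDR90 in another. The longest stretch of reference neighbours without a row was 22 genes, between FAM234A and CEPT1.

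The differences themselves were modest and alike in size. Among the 203 higher genes the median fold of the deposited values was 1.93, with quartiles of 1.73 and 2.26. Over 897 higher rows of the other chromosomes with a value above 0 in both lines, ZNF rows left out, the median fold was also 1.93, with quartiles of 1.72 and 2.47. On chromosome 6, 120 genes were under 2-fold higher, 58 were between 2-fold and 3-fold, and 25 (12.3%) were at least 3-fold higher. On the other chromosomes 16.3% were at least 3-fold higher. Chromosome 14 had a median of 3.19-fold over 43 higher rows, chromosome 7 one of 1.93-fold over 46, and chromosome 20 one of 1.92-fold over 47. The interquartile range of the log2 fold was 0.38 on chromosome 6, 0.37 on chromosome 7, 0.46 on chromosome 20 and 2.82 on chromosome 14. Likeness in size was therefore not particular to chromosome 6. For chromosomes 7, 14 and 20 ZNF rows were kept, which changed only the count of chromosome 20, 46 without them.

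The lower end of these distributions is set by the authors' selection. The smallest log2 fold in either direction was 0.67 on chromosome 6 and 0.67 in the whole table. No listed chromosome 6 gene had a larger value under 5.07, and the values of the lines differed by at least 2.26. Genes with smaller differences had no row, so the median of 1.93-fold is a median over selected genes and says nothing of the rest of the chromosome.

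**Figure D3:**
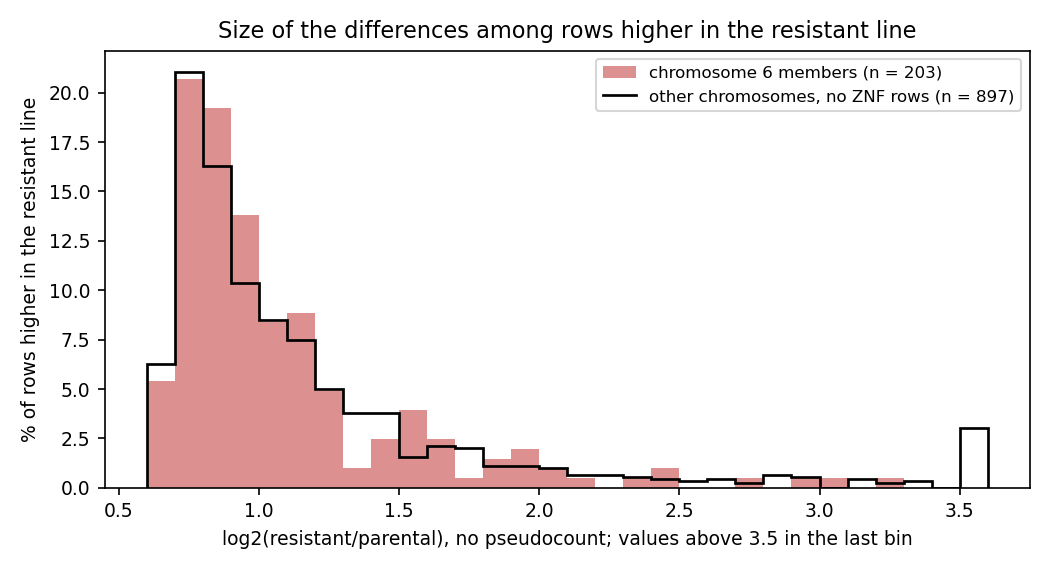
The filled histogram shows the 203 chromosome 6 genes higher in the resistant line and the black outline the 897 higher rows of the other chromosomes, as percentages of each set (y axis) by log2(resistant/parental) without a pseudocount (x axis). Both sets start at the selection limit near 0.67 and have a median of 1.93-fold, and the last bin collects values above 3.5, where no chromosome 6 gene lies.

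Large folds were found mostly at low levels. The higher genes were cut by mean level into 3 sets of like size. In the lowest set, with means of 3.11 to 20.8, the median fold was 2.19 and 17 of 68 genes were at least 3-fold higher. In the middle set the median was 1.94-fold with 5 of 67 genes, and in the highest set, from a mean of 50.9 upward, 1.79-fold with 3 of 68 genes. Rows of the other chromosomes in the same ranges of level had medians of 2.03-fold, 1.83-fold and 1.83-fold. The Spearman coefficient between mean level and log2 fold over the 203 genes was -0.33, a description of genes that share 2 libraries.

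The largest increases belonged to genes of several kinds. VGF, the precursor of secreted neuropeptides, was at 27.7 in resistant cells against 3.498 in parental cells, 7.91-fold higher. It lies at 8701289 to 8704386 beside AP1S1, which was at 366 against 184. MCOLN2, a cation channel of endosomes and lysosomes (62956797 to 63008527), was at 44.4 against 10.5. ORAI3, a subunit of store-operated calcium channels (17248900 to 17253935), was at 52.6 against 13.7. Both genes encode cation channels, and both were about 4-fold higher, at 4.22-fold and 3.84-fold. SLC9A3R2, a scaffold of membrane transporters, was at 6.81 against 1.02.

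Genes of intraflagellar transport, which builds cilia, were also among the largest increases. CLUAP1 was at 7.86 in resistant cells against 1.57 in parental cells, and IFT22 at 20.6 against 5.95. TNFRSF12A, the receptor of the cytokine TWEAK, was at 73.6 against 23.2. The kinase gene TNNI3K, known from heart muscle, was at 16.4 against 4.28. EVI5, which has a TBC domain that acts on Rab GTPases, was at 12.999 against 3.31. MAPK8IP3, a scaffold of JNK signalling and of kinesin transport, was at 39.7 against 12.6, and FAHD1, a mitochondrial enzyme, at 112 against 37.1. For these 7 genes the log2 differences ran from 1.57 for FAHD1 to 1.79 for CLUAP1, and FAHD1 lies within the interval of HAGH on the other strand.

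The row of NOXO1, an organizer of the NADPH oxidase NOX1, had the highest level of the chromosome, at 6038 in resistant cells against 1090.0 in parental cells, 5.54-fold higher. Its deposited interval, 38951926 to 38968743, contains that of TBL3 on the opposite strand and shares 7 bases with NDUFB10. In the reference gene order TBL3, RNF151, LOC111096329 and RPS2, which encodes a protein of the small ribosomal subunit, follow NOXO1 before NDUFB10, and RPS2 had no row. The sources used here do not say how strand and overlapping genes were handled, so the reads behind this row cannot be assigned to NOXO1 alone. TBL3, a factor of ribosomal RNA processing, was at 134 against 83.2, with a log2 difference of 0.68, and NDUFB10 at 495 against 266.

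The largest increase on the log2(value + 1) scale, 3.06, was that of LOC612019, described as pancreatic alpha-amylase (46954343 to 46956001). It was at 543 in resistant cells against 64.0 in parental cells, 8.48-fold higher. Amylase genes are a family of near-identical copies in many mammals, so reads may be shared between copies, and this row is uncertain. The gene has no entry in the reference table.

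Several of the most abundant genes differed by close to 2-fold. ELOB, the elongin B subunit of ubiquitin ligases, was at 1089 in resistant cells against 507 in parental cells. CHCHD2, a mitochondrial protein that also acts in the nucleus, was at 1036 against 557. SPN, which encodes the leukocyte sialoglycoprotein CD43, was at 1019 against 492. ARPC1B, a subunit of the actin-branching Arp2/3 complex, was at 859 against 507, and the small GTPase RAC1, which activates that complex through its effectors, at 501 against 265. BUD23, a methyltransferase of 18S ribosomal RNA, was at 659.8 against 347. Among these 6 genes the folds lay between 1.69 for ARPC1B and 2.15 for ELOB. BUD23 contains the interval of DNAJC30, a mitochondrial DnaJ protein, on the other strand, and DNAJC30 was at 30.6 against 13.8.

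By function, 94 of the 216 genes fell into at least 1 of 11 lists of gene groups, and 92 of the 94 were higher. The 122 genes in no list had 111 higher and 11 lower. The medians of the 2 sets were 0.88 and 0.89. In each list most genes were higher. However, the lists were assembled from genes likely to lie on this chromosome and with earlier results of these data known. Their direction therefore repeats that of the chromosome. The lists are not complete, and some of their genes act mainly outside the named function.

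**Figure D4:**
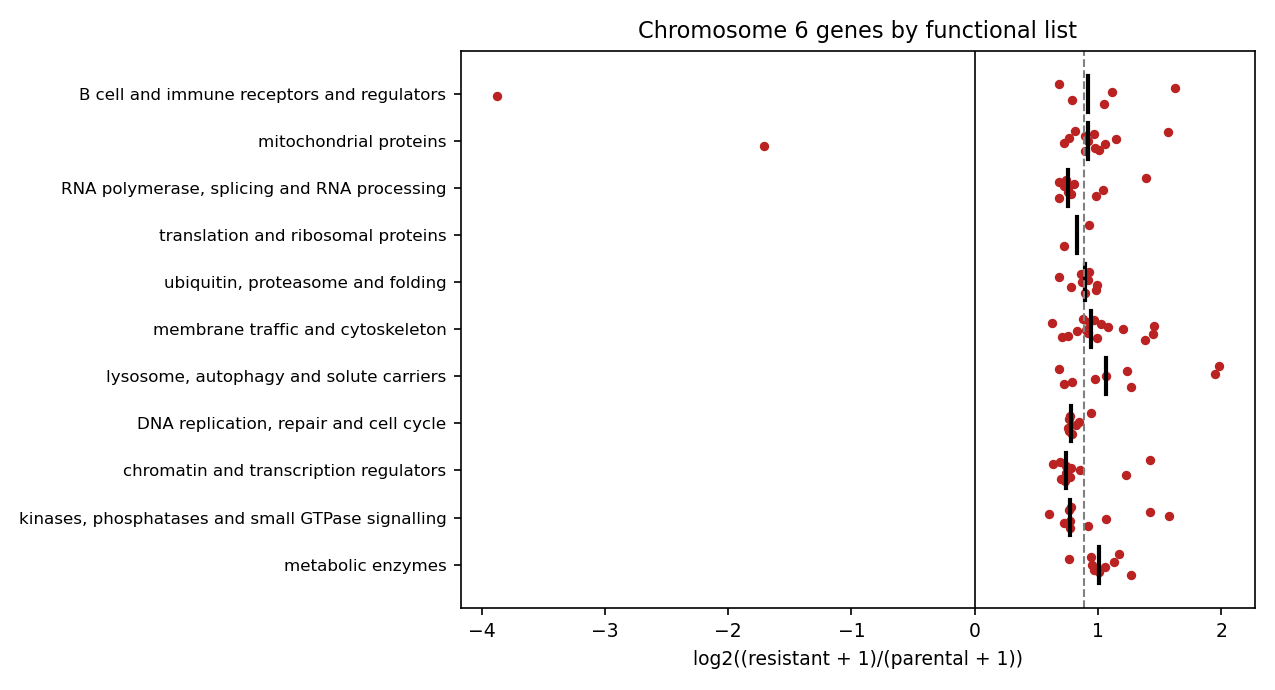
Points are the chromosome 6 genes of each functional list at their log2((resistant + 1)/(parental + 1)) difference, black bars are list medians and the dashed line is the median of all 216 genes, 0.88. Medians run from 0.74 for chromatin and transcription regulators to 1.06 for lysosome, autophagy and solute carriers, and the only points below 0 are NLRC3 and ATP5J2.

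The list of mitochondrial proteins had 13 genes on the chromosome, 12 higher and 1 lower, with a median of 0.92. It counts SPNS1, which the authors' lysosomal membrane term also holds. MDH2, malate dehydrogenase of the citric acid cycle, was at 863 in resistant cells against 429 in parental cells. BCKDK, the kinase that restrains branched-chain amino acid breakdown, was at 192 against 91.9, and ECI1, an isomerase of fatty acid oxidation, at 55.7 against 24.6. TUFM, the mitochondrial elongation factor Tu, was at 450.3 against 273, and its difference of 0.72 lies just below 0 after centring on that of all rows. The lower gene of the list was ATP5J2, a subunit of the ATP synthase. The authors' mitochondrion term had 11 genes on the chromosome, 10 of them higher. Its lower gene was ABAT, which is not in this list. ATP5J2 and ABAT are described with the other lower genes.

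The list of metabolic enzymes had 9 genes, all higher, with a median of 1.01. GUSB, the lysosomal beta-glucuronidase, was at 72.3 in resistant cells against 29.5 in parental cells. ALG1, a mannosyltransferase of N-glycan assembly, was at 62.0 against 27.7. CDIPT, which makes phosphatidylinositol, was at 223 against 115. ALG1 overlaps EEF2KMT on the other strand. Other enzymes of the list were MDH2, BCKDK, CHST12, MSRB1 and PIGQ.

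Lysosome, autophagy and solute carrier genes had the highest list median, 1.06 over 9 genes, all higher. Besides MCOLN2, GUSB and SLC9A3R2, CLCN7, the chloride-proton exchanger of lysosomes, was at 30.4 in resistant cells against 12.4 in parental cells. TSC2, the tuberin subunit that restrains mTORC1, was at 35.1 against 16.3. CLN3, the lysosomal protein lost in juvenile Batten disease, was at 17.0 against 9.43. ABCA3, a lipid transporter of the ABC family, was at 8.81 against 3.98, a difference of 0.98. SLC12A9 and SLC30A7, a zinc transporter, had differences of 0.73 and 0.68.

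Membrane traffic and cytoskeleton was the longest list, with 16 genes, all higher and a median of 0.95. STX1A, a syntaxin of vesicle fusion, was at 15.6 in resistant cells against 5.38 in parental cells. CYTH3, an exchange factor for ARF GTPases, was at 18.6 against 6.16, and GGA2, an adaptor of the trans-Golgi network, at 27.6 against 11.4. MYH11, the smooth muscle myosin, was at 5.07 against 1.21. MVP, the major vault protein, which has been studied in drug resistance, was at 27.9 against 14.5. Its 1.93-fold difference equals the median of the higher chromosome 6 genes. Coat adaptor genes lay at several places of the chromosome: besides AP1S1 and GGA2, AP4M1 was at 7.46 against 4.18, and its difference of 0.71 falls just below 0 when centred.

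The list of B cell and immune receptors and regulators had 6 genes, 5 higher and 1 lower, with a median of 0.92. These counts include CLN3, the lysosomal protein named above, which is not an immune receptor and had a difference of 0.79. SPN and TNFRSF12A led the higher genes by level and by difference. IL32, annotated as a cytokine, was at 20.4 in resistant cells against 8.89 in parental cells. TGFBR3, the TGF-beta co-receptor betaglycan, was at 47.0 against 28.9. The lower gene was NLRC3. CIITA, which the list also holds, had no row.

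RNA polymerase, splicing and RNA processing genes numbered 11, all higher, with a median of 0.76. SRRM2, a splicing coactivator of nuclear speckles, was at 201 in resistant cells against 115 in parental cells. MAZ, a zinc finger transcription factor, was at 270.1 against 157, and TAF6, a subunit of TFIID, at 123 against 61.4. RPAP2, a phosphatase of RNA polymerase II, was at 9.48 against 3.00. METTL9, counted in the list although it is a histidine methyltransferase of proteins, was at 82.2 against 39.5. TAF6 overlaps both CNPY4 and AP4M1 on the other strand.

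Chromatin and transcription regulators had 11 genes, all higher, and the lowest list median, 0.74, with 7 of the 11 above the median of all rows. The largest difference of the list, 1.42, was that of AXIN1, at 57.8 in resistant cells against 20.9 in parental cells. AXIN1 is a scaffold of the beta-catenin destruction complex, not a chromatin protein, and is also counted with the kinases. MAFK, a small Maf protein that pairs with NRF2, was at 50.9 against 21.2. BCL7C and BCL7B, both subunits of the BAF remodelling complex, were at 133 against 73.3 and at 75.8 against 45.2. HIRIP3, a partner of the histone chaperone HIRA, was at 137 against 81.6. CREBBP, the acetyltransferase CBP, was at 20.9 against 12.6, a difference of 0.69, and KAT8, the acetyltransferase of histone H4, at 86.2 against 51.2.

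DNA replication, repair and cell cycle had 8 genes, all higher, between 0.75 and 0.95. This range holds for the listed genes only. RMI2, described as RecQ mediated genome instability 2, is in no list and had a difference of 0.68. NUDT16L1, the partner of 53BP1 described with the lower genes, is in no list either and had one of -0.73. CDC7, the kinase that fires replication origins, was at 91.1 in resistant cells against 46.8 in parental cells. RFC2, a subunit of the clamp loader, was at 155 against 89.1, and NSMCE1, a subunit of the SMC5-SMC6 complex, at 76.0 against 42.6. PKMYT1, a kinase that inhibits CDK1, was at 32.1 against 17.4. INO80E, of a chromatin remodeller that works at damaged DNA, was at 159 against 94.1. NTHL1, a glycosylase that removes oxidised bases, was at 60.2 against 35.0. None of the 8 differed by as much as 1 on the log2 scale.

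Kinases, phosphatases and GTPase signalling had 10 genes, all higher, with a median of 0.78. GNB2, a beta subunit of heterotrimeric G proteins, was at 400.0 in resistant cells against 234 in parental cells. MAPK8IP3 and AXIN1 had the largest differences, 1.58 and 1.42. PRKACB was at 89.0 against 51.4, and ADCY9, an adenylyl cyclase that makes the cAMP which activates it, at 12.5 against 6.88. These cAMP pathway genes had differences of 0.78 and 0.77.

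The list of ubiquitin, proteasome and folding had 9 genes, all higher, between 0.68 and 0.99. It counts UBN1, ubinuclein 1, at a difference of 0.87, although UBN1 is not a gene of these functions. KCTD13, a substrate adaptor of cullin 3, was at 27.5 in resistant cells against 13.4 in parental cells. FBXL18, an F-box protein, was at 48.5 against 24.0, and USP33, a deubiquitinase, at 42.9 against 22.04. STUB1, the chaperone-linked ligase CHIP, was at 131 against 81.4, and its difference of 0.68 falls just below 0 when centred. The translation list had 2 genes, both higher: EEF2K, the kinase of elongation factor 2, at 38.4 against 22.8, and EEF2KMT, a methyltransferase of the same factor, at 41.3 against 21.2. DPH5, an enzyme of the diphthamide residue of elongation factor 2, is in no list and was at 76.8 against 46.8. These 3 genes that modify the factor were grouped after their values were seen. All 3 were higher, by 0.73, 0.93 and 0.70, as were 94.0% of the 216 genes. When centred, EEF2K falls just below 0 (-0.0035), and the 0.70 of DPH5 is under the median of all rows, 0.73.

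Members of small families lay together in some places and had similar differences. These families were picked after their values were seen. LRRC8D, LRRC8C and LRRC8B, subunits of the volume-regulated anion channel, are consecutive rows between 58692352 and 59061302. LRRC8D was at 33.7 in resistant cells against 17.9 in parental cells, LRRC8C at 50.8 against 30.3 and LRRC8B at 26.4 against 15.1, with folds between 1.68 and 1.88. The neighbours FLYWCH1 and FLYWCH2 were at 88.8 against 40.0 and at 14.2 against 5.92, with the same difference of 1.13 although their levels differed. Genes of selenium metabolism, which lie far apart, were SEPHS2, the enzyme that makes the selenium donor, at 239.5 against 130.2, and the selenoproteins SELENOF, at 394 against 195, and MSRB1, at 46.5 against 26.9.

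The 13 lower genes were exceptions in the midst of higher neighbours. NLRC3, a member of the NLR family known to restrain innate immune signalling, (37668654 to 37707387) had a listed value of 0 in resistant cells against 13.7 in parental cells. On one side of it LOC111096315 was at 12.9 against 6.21, and on the other side CLUAP1 was 5.02-fold higher. NLRC3 is the only one of the 216 genes at 0 in either line, and no fold is given for it.

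COL11A1, a chain of cartilage collagen (47425387 to 47622189), was at 0.0156 in resistant cells against 7.84 in parental cells. ABAT, which breaks down the transmitter GABA (33385779 to 33471348), was at 0.0266 against 5.19. TMC7, a transmembrane channel-like protein (25855162 to 25922123), was at 3.75 against 31.7, 8.46-fold lower. COL11A1 and ABAT were near 0 in the resistant line, so their log2 differences depend on the pseudocount: -3.12 and -2.59 with a pseudocount of 1, -1.36 and -1.02 with one of 5. The row before TMC7, CCP110, was at 28.6 against 15.7, and the row after it, LOC489992, at 299 against 170.1.

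SEPT1, a septin (17714929 to 17718972), was at 8.02 in resistant cells against 32.9 in parental cells. ZFAND2A, a zinc finger protein induced by arsenite (15725903 to 15736450), was at 22.6 against 61.7. ATP5J2 (10128623 to 10172377) was at 105 against 344, 3.29-fold lower, between FAM200A and ARPC1B, which were both higher. NUDT16L1, a binding partner of the repair protein 53BP1 (36711351 to 36713931), was at 39.4 against 65.98 and had the smallest of the 13 differences, -0.73. In the reference table ATP5J2 overlaps CPSF4 and BUD31, TMC7 overlaps COQ7 and SEPT1 overlaps ZNF48.

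The remaining 5 lower rows were a microRNA gene and LOC placeholders. MIR25, a microRNA gene that lies within MCM7 in the reference table, was at 2.16 in resistant cells against 9.18 in parental cells. Its deposited interval, 9498993 to 9499051, spans 59 bases, less than the 150 to 200 bp fragments preferred in library preparation, so its value is uncertain. LOC102151489, described as a pseudogene of the RNA-binding protein HNRNPA3, was at 12.02 against 53.3, and LOC100856313, described as a pseudogene of the chromosomal protein HMG-17, at 13.2 against 23.2. Reads of such copies can come from their parent genes, so these rows are uncertain too. LOC608835, described as similar to proline-rich protein 3, was at 3.55 against 6.93, and LOC490169, which has no description, at 52.3 against 171.

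**Figure D5:**
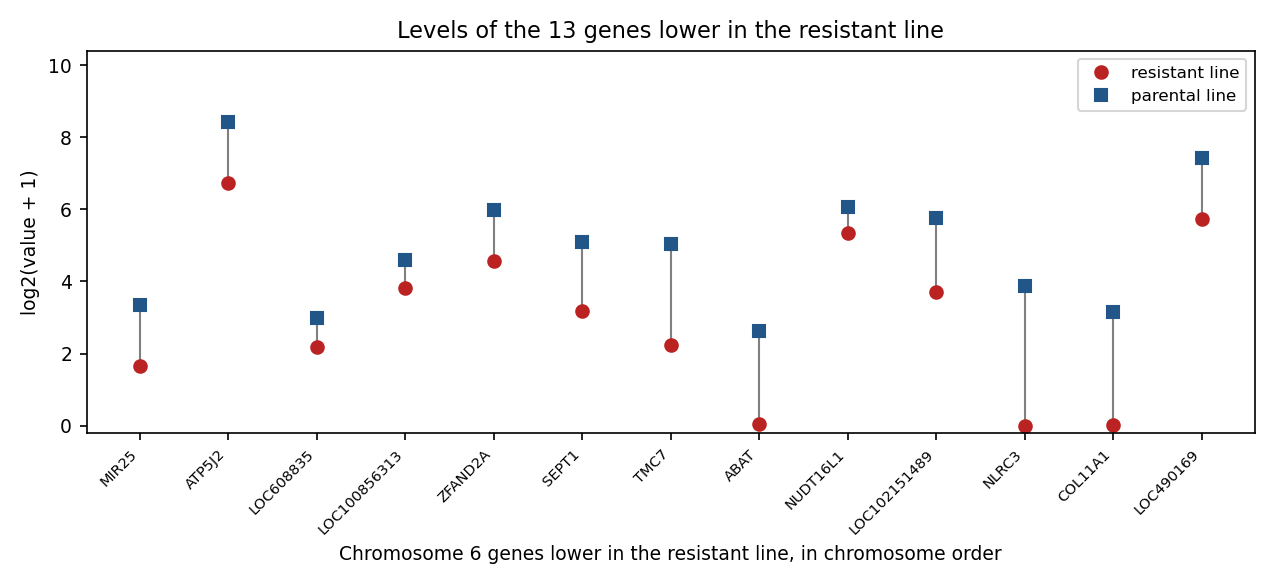
For each of the 13 lower genes in chromosome order, the red circle is the resistant line and the blue square the parental line, on the log2(value + 1) scale. NLRC3, COL11A1 and ABAT sit at or near 0 in the resistant line, whereas ATP5J2, NUDT16L1 and LOC490169 lie above 5 in both lines.

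Overlaps between listed rows were few. Of all chromosome 6 rows, 9 pairs had overlapping intervals, all 9 on opposite strands, and 15 of the 216 genes belonged to such a pair. Leaving out these genes left 188 higher and 13 lower. The reference table placed 204 of the 216 genes, all of them on chromosome 6. Of these, 196 were placed by gene ID. The others were matched by symbol among chromosome 6 genes only, so their placement does not check the chromosome.

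The chromosome also contributed to the terms of the authors' deposited ontology and pathway tables. These terms were picked after their values were seen, among those with at least 4 chromosome 6 genes. The 216 genes are 12.5% of all rows, and they made up 31.6% of the KEGG lysosome term of the authors' deposited table, 6 of 19 genes: GUSB, AP1S1, AP4M1, CLN3, GGA2 and SORT1. All 6 were higher, as were 10 of the other 13. Intracellular protein transport had 6 of 30 genes on the chromosome, all higher, against 13 of the other 24. The trans-Golgi network term had 4 of 15, and the term for the perinuclear region of the cytoplasm 9 of 42, or 21.4%. Several large terms were closer to the share of all rows, with 17 of 131 nucleoplasm genes (12.98%), 12 of 106 cytosol genes (11.3%) and 11 of 84 mitochondrion genes (13.1%).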

How the data were processed

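Poly-A RNA of both lines was made into libraries with a kit for Illumina sequencing, 1 sample per line, per the labels' protocols. HISAT2, StringTie and the build CanFam3.1 were used, per the submitters' processing notes. The deposited abundance signal per gene and line has no stated unit and is not whole numbers, so the depth behind a value is unknown and no interval is given. The log2 fold in the deposited table equals log2 of resistant over parental values to within 1.6e-14. The sources used here do not say how the authors selected rows.

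Rows of chromosome 6 without ZNF symbols were ordered by start. Differences used a pseudocount of 1, with no filter on low values and no test, because each group is 1 sample. The reference gene table UU_Cfam_GSD_1.0 gave gene counts and order only. It was matched by gene ID, which placed 196 of 212 IDs, and then by a symbol unique on the row's own chromosome. Members and the 11 gene lists were chosen with earlier results of these data known. Genes named in the text were the 12 largest increases without LOC symbols, all decreases, the 10 highest levels, up to 4 members of each list by difference and 2 by level, neighbours of lower rows, and the first and last row. Others were chosen after their values were seen. Procedures were tested on simulated data. Python 3.11.15, pandas 2.3.3 and scipy 1.17.1 were used. Some genes are not reported here.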

Additional observations from a re-analysis of the deposited data

How the results depend on the processing

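The count of 203 higher genes was within 1.5 times its main value when low levels were filtered. It also stayed within that limit when differences were centred on the median of all rows. Adding the 11 ZNF rows, or leaving out the 26 LOC rows or the 15 genes in overlapping pairs, changes too few rows to pass that limit. The counts after adding or leaving out these rows therefore say nothing of stability. Leaving out overlapping rows and the centring were chosen after seeing the data. Requiring a difference of at least 1 on the log2 scale gave 72 higher genes, and doing so after upper-quartile scaling gave 34. The count of 13 lower genes became 8 with a mean of at least 10 required, and 53 with centring. All bins along the chromosome had a positive median with 5 Mb bins. Among the lists, centring left 1 of 2 translation genes and 7 of 11 chromatin genes above 0. The median of the higher genes was 0.90 with a pseudocount of 1, 0.78 with 5 and 0.95 with none, and their interquartile range was 0.37, against 0.30 with a pseudocount of 5, 0.38 with none and 0.35 over means of at least 5. Of the 93 genes named by the rule given above, 5 turned sign with centring. Genes named in the text outside that rule are not counted there. Over all 203 higher genes, 40 were at or below the median of all rows. Another pseudocount cannot turn a sign, nor can upper-quartile scaling in rows selected for their fold, so signs under these say nothing of stability. No paired analysis was possible because each line is 1 sample. Depth is unknown, so the precision of low values cannot be given.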

Other observations

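Uncharacterized transcripts of chromosome 6 were higher as well. All 10 listed rows described as uncharacterized LOC genes were higher in the resistant line, as were 94.0% of the 216 genes, so their direction is that of the chromosome. Their median log2 difference was 1.42, against 0.90 over the 203 higher genes. Some were at low levels, where the higher genes had larger folds, such as LOC111096175 with a mean of 3.11 and LOC102154296 with 8.87. Whether level accounts for the larger median was not tested. LOC102156785 (38805924 to 38865504), which ends next to TSC2 and overlaps RAB26 in the reference table, was at 26.9 in resistant cells against 5.08 in parental cells, and LOC111096175 at 5.64 against 0.576. LOC106558916 was the most abundant, at 119.9 against 68.4.

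Some chromosome 6 genes with roles outside the lists differed as well. These genes were picked after their values were seen. PLOD3, a lysyl hydroxylase of collagen, was at 109.8 in resistant cells against 45.8 in parental cells. GIGYF1, an adaptor of translational repression, was at 31.4 against 11.0. LFNG, which glycosylates Notch receptors, was at 5.74 against 1.98. AMPD2, an AMP deaminase, was at 123 against 69.6, and XPO6, an exporter of actin from the nucleus, at 154 against 88.4.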
